A study of Mus musculus with 6 samples.

Results

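Genes of the tumor necrosis factor (TNF) superfamily were followed in neutrophils sorted from peripheral blood (PB) of mice with and without ligature-induced periodontitis (LIP). Members were chosen by gene name, with earlier results of these data known. The table of 29097 genes lists all 10 of them: the ligands *Tnf*, *Tnfsf10*, *Tnfsf13b*, *Tnfsf14* and *Ltb*, and the receptors *Tnfrsf1a*, *Tnfrsf1b*, *Fas*, *Ltbr* and *Tnfrsf13c*. LIP mice carried silk ligatures on their second molars for 14 d, and Ctrl mice were left unligated over the same time. All were wild type C57BL/6 males, 8 weeks old according to the methods. Each of the 6 libraries, 3 per group, was made by Smart-seq2 from CD45+CD11b+Ly6G+ cells pooled from 5 mice, and p-values measure the spread between these pools.

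TNF superfamily ligands are mostly trimeric membrane proteins that can be shed, and their receptors signal through TRAF adaptor proteins to NF-κB or, where they carry a death domain, to caspases. In blood, neutrophils respond to TNF through TNFR1 (*Tnfrsf1a*) and TNFR2 (*Tnfrsf1b*). Lymphotoxin β (*Ltb*) is a product of lymphocytes best known for its part in lymphoid organ formation, and BAFF (*Tnfsf13b*) is made by myeloid cells and keeps B cells alive through the BAFF receptor (*Tnfrsf13c*).

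Higher in LIP were 7 members, *Tnf*, *Tnfsf13b*, *Tnfsf14*, *Tnfrsf1a*, *Tnfrsf1b*, *Fas* and *Ltbr*, with log2 fold changes between 1.08 and 1.62 after TMM normalization, whereas none was higher when libraries were scaled on neutrophil genes. Lower were *Ltb*, with -0.95, and *Tnfrsf13c*, with -2.74. *Tnfsf10* was too low to be tested. Calls were made at a Benjamini-Hochberg adjusted p under 0.05 in edgeR's quasi-likelihood test on the 10440 genes whose FPKM (fragments per kilobase of gene, scaled to library size) averaged 1 or more. Changes were widespread in these libraries: 53.6% of the genes tested were called, 26.5% higher and 27.2% lower. These were 2766 and 2835 genes, and scaling by library totals gave 1919 higher and 4146 lower, with the median of all genes at -0.42. Scaling on the neutrophil genes gave 99 higher and 8995 lower, so few genes of any kind were higher under it. In all 9 members tested the 3 LIP libraries did not overlap the 3 Ctrl libraries, which held for 63.4% of all genes tested. The median log2 fold change was 1.55 over the 9 members and -0.09 over all genes tested. In the rest of the superfamily the median was -1.37 over the 6 ligands tested and -0.09 over the 14 receptors tested. With members included it was -0.19 over ligands and 0.42 over receptors. The 3 other ligands called lower, *Tnfsf8*, *Cd40lg* and *Lta*, passed the FPKM minimum through Ctrl only. Their LIP means were 0.068, 0.367 and 0.639 FPKM, so the ligand medians depend on that minimum. Since members were chosen with earlier results known, their median is a description of these genes only.

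The total count per library lay between 52186555 and 57262379, and these libraries differed in composition. Levels below are CPM, TMM-normalized counts scaled per 1e+06, and errors after ± are SDs over the 3 libraries of a group. The 21 mature neutrophil genes listed, among them the sort markers *Ly6g* and *Itgam* and the calprotectin genes *S100a8* and *S100a9*, were all higher in LIP, with a median log2 fold change of 1.86. They took 1.95% to 2.14% of the counts in Ctrl and 5.67% to 6.02% in LIP. The 15 B cell genes listed took 2.1% to 2.26% in Ctrl, slightly more than the neutrophil genes there, and 0.343% to 0.351% in LIP. All 15 B cell genes, all 14 T cell genes tested and all 9 erythroid genes tested were lower in LIP, with medians of -2.59, -2.42 and -3.01. The platelet list (8 of 8 tested genes higher, median 1.23) and the monocyte and macrophage list (9 of 11 higher, 1 lower, median 0.89) were higher after TMM normalization, although scaled on the neutrophil genes 6 and 8 of their genes were lower and none higher. NK cell genes (3 of 8 higher, none lower) had a median of 0.18, dendritic cell genes (1 of 2 higher) of 0.74, and eosinophil and basophil genes (1 of 5 higher) of 0.66. Per library, the mean log2 level of 6 lists did not overlap between groups, each at the smallest exact permutation p of 0.1 (0.150 adjusted over 9 lists), and NK cell, dendritic cell, and eosinophil and basophil genes had exact permutation p between 0.2 and 0.3. The erythroid list took 14.7% to 15.2% of the counts in Ctrl and 1.57% to 1.63% in LIP. Of the most abundant gene pairs of these lists, *S100a8* and *S100a9* had log2 fold changes of 1.95 and 2.03, *Cd74* and *Ighm* of -2.27 and -2.15, *Lck* and *Trac* of -1.32 and -2.36, and *Hba-a1* and *Hba-a2* of -2.80 and -2.89. Those of *Ppbp* and *Pf4* were 1.23 and 1.21, and of *Nr4a1* and *Pld4* 0.57 and 0.26. Neither gene of the NK cell pair, *Nkg7* (-0.15) and *Gzma* (0.20), was called. Of the dendritic cell pair, *Bst2* (0.00) was not called and *Cd209a* came to 1.49. Of the eosinophil and basophil pair, *Siglecf* came to 1.44 and *Ccr3* (0.66) was not called. In such bulk libraries fewer cells of a type and less RNA per cell cannot be told apart. Each member is also given relative to the neutrophil list and, where it bears on the member, to the B cell list.

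**Figure D1:**
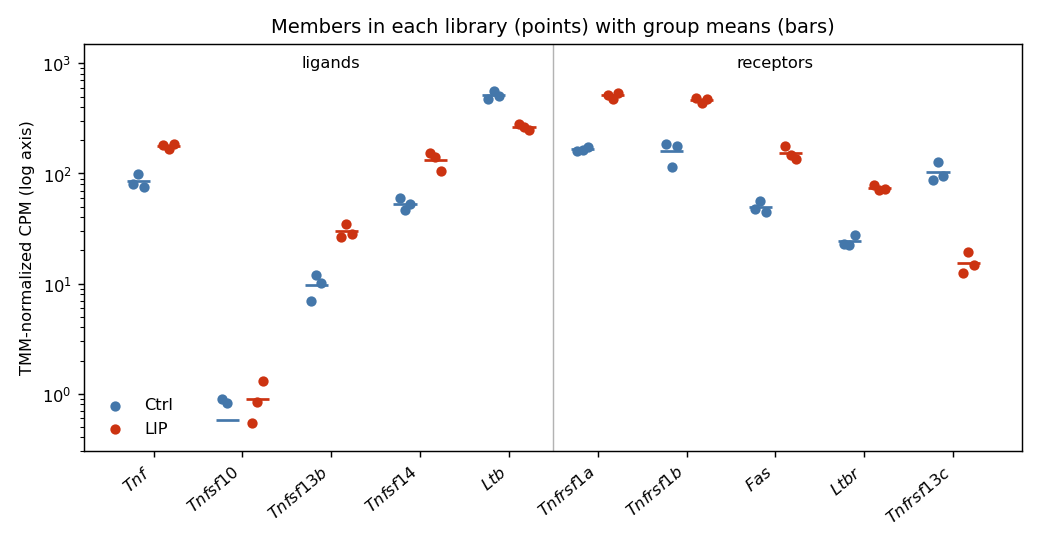
Normalized counts of the 10 members (vertical log axis, TMM-normalized CPM) in the 3 Ctrl libraries (blue) and the 3 LIP libraries (red), with bars at the group means. *Ltb* and *Tnfrsf13c* are lower in every LIP library, *Tnfsf10* overlaps near 1 CPM (1 Ctrl library at 0 is not drawn), and the others are higher in every LIP library on this scale, but not when scaled on neutrophil genes.

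*Tnf* encodes the founding cytokine of the family, which primes neutrophils for adhesion and the oxidative burst. Its gene (ENSMUSG00000024401, GRCm38 chromosome 17 from 35199381 to 35202007, minus strand) lies within the major histocompatibility complex, between *Lta* and *Ltb*. It was measured at 79.5, 98.9 and 76.1 CPM in Ctrl and at 182, 168 and 186 CPM in LIP. Each LIP library stood well above the highest Ctrl library. In LIP over Ctrl this made 1.08 on the log2 scale (SE 0.129, edgeR adjusted p = 5.9e-05), the smallest among the 7 members that rose.

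*Ltb*, whose product anchors lymphotoxin α in the membrane, lies on the opposite strand, 3075 bases from *Tnf* and tail to tail with it (ENSMUSG00000024399, chromosome 17 from 35194439 to 35196305, plus strand). It stood at 473, 560 and 502 CPM in Ctrl. The LIP libraries held 281, 267 and 248 CPM, all below the lowest Ctrl library. The change came to -0.95 in log2 units (SE 0.102, edgeR adjusted p = 2.72e-05). The microRNA gene *Mir6973a* lies within *Ltb* on the same strand, so reads there could be counted for either.

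*Lta*, the lymphotoxin α gene, lies 1157 bases from *Tnf* on its other side, and it also fell, from 6.26 ± 0.920 to 1.07 ± 0.415 CPM. In log2 units this was -2.55 (edgeR adjusted p = 0.000656). *Tnf* thus rose after TMM normalization while *Lta* and *Ltb* on either side fell, and scaled on neutrophil genes all 3 were lower. *Ltbr*, the lymphotoxin β receptor, and *Tnfrsf1a* are also neighbours, 35476 bases apart on chromosome 6, and they rose by 1.61 and 1.62. Of the next genes by position, named after their values were seen, *Scnn1a* between *Ltbr* and *Tnfrsf1a* rose by 1.66 and *Lst1* beyond *Ltb* by 1.34, and *Nfkbil1* beyond *Lta* was not called (0.37).

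**Figure D2:**
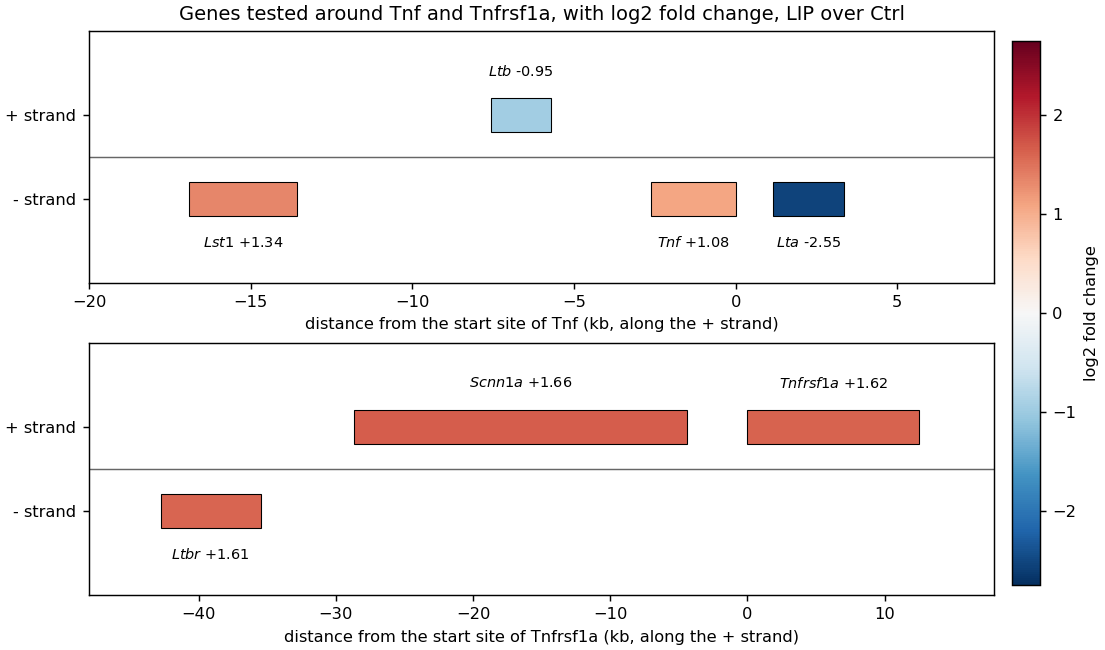
Position of the genes tested around *Tnf* (upper panel) and *Tnfrsf1a* (lower panel), as distance in kb from the start site of that gene, with the strand on the vertical axis and the log2 fold change of LIP over Ctrl as color and number. MicroRNA genes are left out. *Tnf* (1.08) lies between *Ltb* (-0.95) and *Lta* (-2.55), whereas *Ltbr* (1.61) and *Tnfrsf1a* (1.62) are alike in sign and size.

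After TMM normalization, though not when scaled on neutrophil genes, *Tnf* and *Ltb* moved in opposite directions. The bases upstream of these neighbours are shown for that reason. Both come from RefSeq (GRCm38.p6), run 5′ to 3′ on the strand of the gene and stop before the gene body as the deposited table gives it, which for *Ltb* leaves out the 68 bases nearest the RefSeq start. For *Tnf* this is chr17:35202008-35202257 on the minus strand, with the match to TATAAA in capitals. For *Ltb* it is chr17:35194257-35194438 on the plus strand, with the match to the κB pattern GGG, any 3 bases and TTCC in capitals.
Tnf: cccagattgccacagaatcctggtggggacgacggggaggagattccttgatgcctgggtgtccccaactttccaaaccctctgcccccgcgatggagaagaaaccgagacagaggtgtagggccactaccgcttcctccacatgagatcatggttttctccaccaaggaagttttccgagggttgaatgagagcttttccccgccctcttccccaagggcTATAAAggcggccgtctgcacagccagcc
Ltb: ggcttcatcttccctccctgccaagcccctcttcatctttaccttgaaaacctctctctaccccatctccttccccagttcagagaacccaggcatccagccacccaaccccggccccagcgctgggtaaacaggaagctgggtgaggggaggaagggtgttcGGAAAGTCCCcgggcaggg

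The 5 motifs were searched on both strands in the 250 bases before each RefSeq start, for the 11 starts that the 10 members have. TATAAA begins 29 bases before the start of *Tnf* and was found at no other member, and 12.4% of all 32851 starts hold it. The κB pattern begins 87 bases before the start of *Ltb*, where it reads GGAAAGTCCC, the pattern on the other strand, and was found at no other member. Of all starts, 4.65% hold it. CCAAT, the PU.1 pattern GAGGAAGT and the C/EBP pattern TTGCNNAA were found at none of the 11 starts, against 33.8%, 2.44% and 9.56% of all starts. A match is a string of letters and was not tested as a binding site.

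*Tnfsf14* encodes LIGHT, a ligand of the lymphotoxin β receptor and of HVEM (ENSMUSG00000005824, chromosome 17 from 57189492 to 57194177, minus strand). It was measured at 60.0, 47.0 and 52.9 CPM in Ctrl and at 153, 141 and 105 CPM in LIP. The LIP libraries were all higher, with replicate 3 the lowest of them. On the log2 scale LIP differed by 1.32 (SE 0.163, edgeR adjusted p = 7.25e-05).

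*Tnfsf13b*, the BAFF gene (ENSMUSG00000031497, chromosome 8 from 10006467 to 10039072, plus strand), had few counts, at 6.88, 12.0 and 10.2 CPM in Ctrl and 26.6, 34.7 and 28.4 CPM in LIP. The groups did not overlap, and the standard error of its log2 fold change of 1.62 was the largest among the 9 members tested, at 0.251 (edgeR adjusted p = 0.000343). The low genes *Gm44789* and, at *Fas*, *Gm27818* overlap these members. *Tnfsf10*, the gene of the death ligand TRAIL (ENSMUSG00000039304, chromosome 3 from 27317028 to 27342427, plus strand), had raw counts of 0, 54 and 48 reads in Ctrl and 27, 43 and 61 in LIP. These ranges overlap. Its mean FPKM of 0.125 was under the minimum for testing, and without that minimum edgeR put it at 0.66 in log2 units (SE 1.44, adjusted p = 0.793), so a difference was not detectable at this depth.

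*Tnfrsf1a* encodes TNFR1, the death domain receptor that binds soluble TNF (ENSMUSG00000030341, chromosome 6 from 125349362 to 125361874, plus strand). It was measured at 160, 164 and 175 CPM in Ctrl and at 517, 479 and 542 CPM in LIP. The 3 Ctrl libraries lay close together and far below the LIP libraries. In LIP over Ctrl this made 1.62 on the log2 scale (SE 0.0981, edgeR adjusted p = 5.9e-07), with the smallest standard error and the smallest adjusted p of all members.

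*Tnfrsf1b* encodes TNFR2, which lacks a death domain and responds best to membrane-bound TNF (ENSMUSG00000028599, chromosome 4 from 145213463 to 145246870, minus strand). It was measured at 187, 115 and 177 CPM in Ctrl and at 483, 436 and 477 CPM in LIP. Ctrl replicate 2 stood below the other Ctrl libraries, and the groups did not overlap. The change came to 1.55 in log2 units (SE 0.166, edgeR adjusted p = 2.69e-05), and it was 1.38 without Ctrl replicate 2.

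*Fas* encodes the death receptor CD95 (ENSMUSG00000024778, chromosome 19 from 34290666 to 34327772, plus strand). It was measured at 47.5, 56.0 and 45.1 CPM in Ctrl and at 176, 147 and 134 CPM in LIP, with no overlap. On the log2 scale LIP differed by 1.62 (SE 0.144, edgeR adjusted p = 6.79e-06). *Ltbr* (ENSMUSG00000030339, chromosome 6 from 125306571 to 125313885, minus strand) was measured at 22.7, 22.4 and 27.7 CPM in Ctrl and at 77.9, 71.5 and 72.6 CPM in LIP. All LIP libraries were again higher, by 1.61 in log2 units (SE 0.147, edgeR adjusted p = 8.39e-06). Thus 4 receptors and BAFF changed by nearly the same factor, 2.92 to 3.08 times, while *Tnf* and *Tnfsf14* changed by 2.11 and 2.49 times.

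*Tnfrsf13c*, the BAFF receptor gene of B cells (ENSMUSG00000068105, chromosome 15 from 82221743 to 82224353, minus strand), changed most. It was measured at 88.0, 127 and 94.2 CPM in Ctrl and at 12.5, 19.3 and 14.7 CPM in LIP. The highest LIP library was far below the lowest Ctrl library. In LIP over Ctrl this made -2.74 on the log2 scale (SE 0.208, edgeR adjusted p = 2.35e-06), and 2.08% of the genes tested had a lower one. Beside it, the B cell list had a median of -2.59 and a range from -2.98 to -2.15, and its summed FPKM went from between 10872 and 11817 in Ctrl to between 1806 and 1822 in LIP. None of these B cell genes was at 0 in LIP. The part of B cell RNA in this change was not tested.

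Per gene length, in FPKM, *Ltb* led the members in Ctrl with a mean of 348 ± 24.9, followed by *Tnfrsf1a* with 66.2 ± 2.95. *Tnf*, *Tnfrsf13c*, *Tnfrsf1b* and *Tnfsf14* followed, with means of 53.3, 51.8, 43.2 and 29.8, and each overlapped its neighbour in this order. *Fas* (24.7) overlapped *Tnfsf14*, and *Ltbr* (10.6), *Tnfsf13b* (1.45) and *Tnfsf10* (0.110) stood apart below. In LIP the order began with *Tnfrsf1a* at 165 ± 10.1 and *Ltb* at 146 ± 8.34, whose libraries did not overlap. *Tnfrsf1b* (102), *Tnf* (90.9), *Fas* (61.6), *Tnfsf14* (60.0) and *Ltbr* (26.2) came next, and only *Fas* and *Tnfsf14* overlapped. *Tnfrsf13c* (6.29) dropped below *Ltbr*, and *Tnfsf13b* (3.62) and *Tnfsf10* (0.140) remained last.

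Ratios of FPKM within a library do not depend on the scaling between libraries, but they can depend on the mix of cells in it. They were compared by two-sided exact permutation tests over 23 ratios, where 3 libraries against 3 cannot go below p = 0.1 (0.144 after Benjamini-Hochberg adjustment), so no ratio could pass. The log2 ratio of *Tnfrsf1b* to *Tnfrsf1a* was -0.65 ± 0.380 in Ctrl and -0.70 ± 0.0429 in LIP (exact permutation p = 0.9, 0.900 adjusted), and the libraries overlapped. The log2 ratio of *Tnf* to *Tnfrsf1a* was -0.32 ± 0.238 in Ctrl and -0.86 ± 0.0212 in LIP, lower in all 3 LIP libraries. The ratio of *Tnf* to *Ltb* differed by 2.03 on the log2 scale, from -2.71 ± 0.112 to -0.68 ± 0.133, and was higher in every LIP library. The ratio of *Ltb* to its receptor *Ltbr* differed by -2.56, from 5.04 ± 0.235 to 2.48 ± 0.0639. The largest difference among these pairs was that of *Tnfsf13b* to *Tnfrsf13c*, the BAFF ligand to its receptor, with 4.40, from -5.18 ± 0.240 to -0.78 ± 0.125. Except for *Tnfrsf1b* to *Tnfrsf1a*, the groups did not overlap in any of these pairs, each at the smallest exact p of 0.1. Relative to the summed FPKM of the B cell list, *Tnfsf13b* differed by 3.98, near its difference relative to *Tnfrsf13c*. How far the mix of cells enters these pairs was not tested.

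Relative to the summed FPKM of the 21 mature neutrophil genes, *Tnfrsf1a* differed between LIP and Ctrl by -0.28 on the log2 scale, *Tnfrsf1b* by -0.33, *Fas* by -0.28, *Ltbr* by -0.29 and *Tnfsf13b* by -0.25. In these 5 members the libraries of the groups overlapped (exact permutation p between 0.2 and 0.4, 0.242 to 0.418 adjusted). *Tnf* and *Tnfsf14* did not overlap, with differences of -0.82 and -0.60, lower in each LIP library. *Ltb* and *Tnfrsf13c* differed by -2.85 and -4.65. Most of this sum was *S100a8* and *S100a9*, with mean FPKM of 6987 and 7101 in Ctrl and 21792 and 23491 in LIP. When libraries were scaled on all 21 neutrophil genes in edgeR, none of the 9 members was higher, at an adjusted or an unadjusted p under 0.05. Lower were 4 of them, *Tnf* with -0.63, *Tnfsf14* with -0.39, *Ltb* with -2.65 and *Tnfrsf13c* with -4.44. Under that scaling the median of all genes tested was -1.80, with 99 genes higher and 8995 lower. The 7 members were thus higher relative to all counts and in no case called higher relative to the neutrophil genes.

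**Figure D3:**
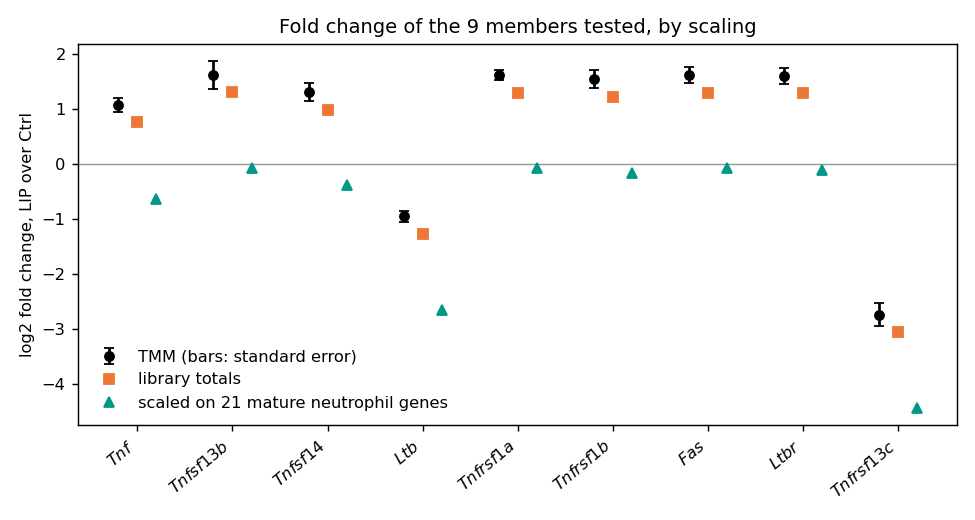
Log2 fold change of LIP over Ctrl (vertical axis) for the 9 members tested, with TMM normalization (black, bars are standard errors), library totals (orange) and scaling on the 21 mature neutrophil genes (green). With the first 2 scalings 7 members are above 0, and with the third none is, where the median of all genes tested is -1.80.

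Relative to the summed FPKM of the B cell list, *Tnfrsf13c* differed by -0.42 on the log2 scale, from -7.78 ± 0.201 to -8.19 ± 0.325, and its groups overlapped (exact permutation p = 0.3, 0.329 adjusted). *Tnfrsf13c* was the only member tested to overlap in this ratio. Most of the B cell sum was *Cd74*, with a mean FPKM of 7225 in Ctrl and 1209 in LIP. *Ltb* was higher by 1.38 relative to the B cell genes, in all 3 LIP libraries, and the 7 members that rose were higher by 3.41 to 3.98. *Ltb* thus fell by less than the B cell genes and also by less than the T cell genes, whose log2 fold changes ran from -3.38 to -1.32. How much of each member's RNA came from other cells was not tested.

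**Figure D4:**
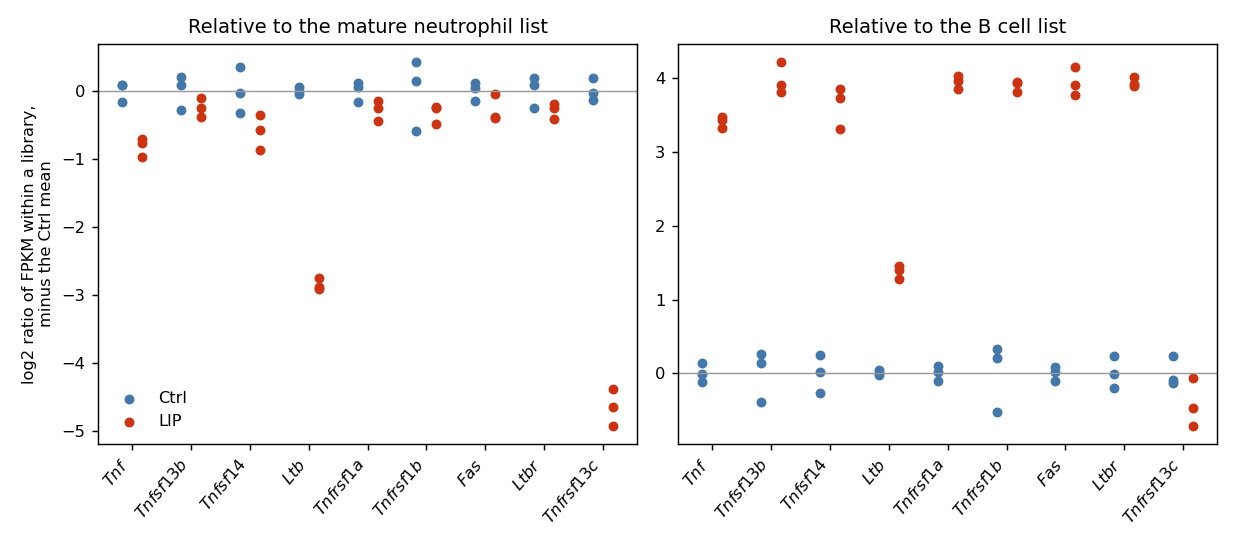
Log2 ratio of each member's FPKM to the summed FPKM of the mature neutrophil list (left) and of the B cell list (right) in each library, minus the Ctrl mean, for Ctrl (blue) and LIP (red). The 4 receptors *Tnfrsf1a*, *Tnfrsf1b*, *Fas* and *Ltbr* and *Tnfsf13b* overlap on the left, and *Tnfrsf13c* alone overlaps on the right.

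Of 13 other ligands listed, 10 were in the table and 6 were tested, and 3 fell while none rose (median log2 fold change -1.37), with 3 and 0 also at an unadjusted p under 0.05 and in DESeq2. Without the minimum on FPKM, and with edgeR's own filter, 2 were lower, since *Cd40lg* was no longer called (adjusted p = 0.114 and 0.061), and limma on FPKM called 4 lower. Those that fell, *Tnfsf8* (CD30 ligand), *Cd40lg* and *Lta*, are known from activated lymphocytes. They averaged under 1 FPKM in LIP and passed the minimum through Ctrl only, so the median of the ligands tested depends on that minimum. *Tnfsf8* went from 7.85 ± 2.88 to 0.321 ± 0.287 CPM, or -4.60 in log2 units (edgeR adjusted p = 0.000314), and *Cd40lg* came to -3.21 (adjusted p = 0.0136). *Fasl*, the ligand of *Fas*, overlapped in CPM (18.4 ± 2.77 in Ctrl, 16.1 ± 1.19 in LIP) and was not called (-0.19, SE 0.214, edgeR adjusted p = 0.464). In FPKM it did not overlap, with 10.5, 10.8 and 8.11 in Ctrl and 7.31, 6.37 and 7.07 in LIP, and limma on log2(FPKM + 1) called it lower (-0.44, adjusted p = 0.0305).

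Of 23 other receptors, 21 were in the table and 14 were tested, and 3 rose, 3 fell and 8 were not called (median -0.09). *Tnfrsf23*, a decoy receptor for TRAIL, showed the largest rise, 2.02 on the log2 scale (13.1 ± 2.65 CPM in Ctrl, 52.9 ± 6.42 CPM in LIP, edgeR adjusted p = 1.48e-05). *Relt* rose by 1.68, from 48.6 ± 3.86 to 156 ± 14.9 CPM, and *Tnfrsf21*, the death receptor DR6, by 1.29. Those that fell were *Cd40* (-2.32), *Tnfrsf13b* (-1.93), which encodes TACI, another BAFF receptor of B cells, and *Cd27* (-1.42), a receptor of lymphocytes. Not called in edgeR, *Tnfrsf4* (-1.37, adjusted p = 0.00136) and *Tnfrsf18* (-0.66, adjusted p = 0.00406) were called lower by limma on log2(FPKM + 1). Over members and others together, 7 of 19 receptors tested rose and 4 fell, and 3 of 10 ligands tested rose and 4 fell. Beside these counts and those of the lists below, 26.5% of all genes tested rose and 27.2% fell.

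Among the genes that release TNF from the cell surface, *Rhbdf2*, which encodes iRhom2, rose by 1.15 (SE 0.164, edgeR adjusted p = 0.000204), whereas the sheddase gene *Adam17* (0.36, SE 0.211, adjusted p = 0.173) and *Frmd8* (0.22) were not called. In this list 1 of 3 genes tested rose (median 0.36), and none of these 3 was lower at an unadjusted p under 0.05 or in DESeq2 or limma. The list's other gene, *Rhbdf1*, which encodes iRhom1, was under the minimum for testing, with a mean FPKM of 0.676, but its groups did not overlap. It had raw counts of 497, 306 and 431 reads in Ctrl and 0, 43 and 0 in LIP. Tested in edgeR without the minimum it was not called lower (adjusted p = 0.0791), and with edgeR's own filter it was (adjusted p = 0.0407).

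Of 17 receptor-proximal adaptors, TRAFs and ubiquitin enzymes tested, 5 rose, 3 fell and 9 were not called (median 0.00). *Tnfaip3*, encoding the ubiquitin-editing enzyme A20 that restrains NF-κB, rose from 879 ± 299 to 2252 ± 250 CPM, by 1.36 (edgeR adjusted p = 0.000328). *Ripk1*, the kinase at TNFR1, rose by 1.20. *Traf5* fell by 1.74, from 44.3 ± 1.61 to 13.3 ± 1.85 CPM, and *Otulin*, which removes linear ubiquitin, by 0.83. *Ripk1* overlaps *Serpinb6a* and *Otulin* overlaps *Ank*, as *Bid* below does *Bcl2l13* and *Adam17* does *Iah1*, each on the opposite strand, and their reads cannot be told apart if strand was not used in counting.

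Of 7 death signaling genes tested, 3 rose and 2 fell (median 0.42). *Bid*, which links *Fas* to the mitochondrial pathway, rose by 1.11 (SE 0.136, edgeR adjusted p = 6.75e-05). *Cflar*, of the same list, also rose, by 0.85 (SE 0.158, edgeR adjusted p = 0.0012). *Faim*, encoding an inhibitor of Fas signaling, fell by 1.08, and *Ripk3*, the necroptosis kinase, by 0.74. *Casp8*, the initiator caspase of Fas, was not called (-0.04, SE 0.171, edgeR adjusted p = 0.851). Of 9 kinases toward NF-κB and MAPK tested, 3 rose and none fell (median -0.05), with *Map3k5* at 1.09 and *Map3k8* at 1.05, while 1 was lower at an unadjusted p under 0.05, none in DESeq2 and 2 in limma. Under scaling on the neutrophil genes, none of the 56 genes tested in these 6 lists was higher, also at an unadjusted p under 0.05, and 50 were lower. Of all 10440 genes tested, 99 were higher and 8995 lower under that scaling, so these counts are not particular to the lists.

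**Figure D5:**
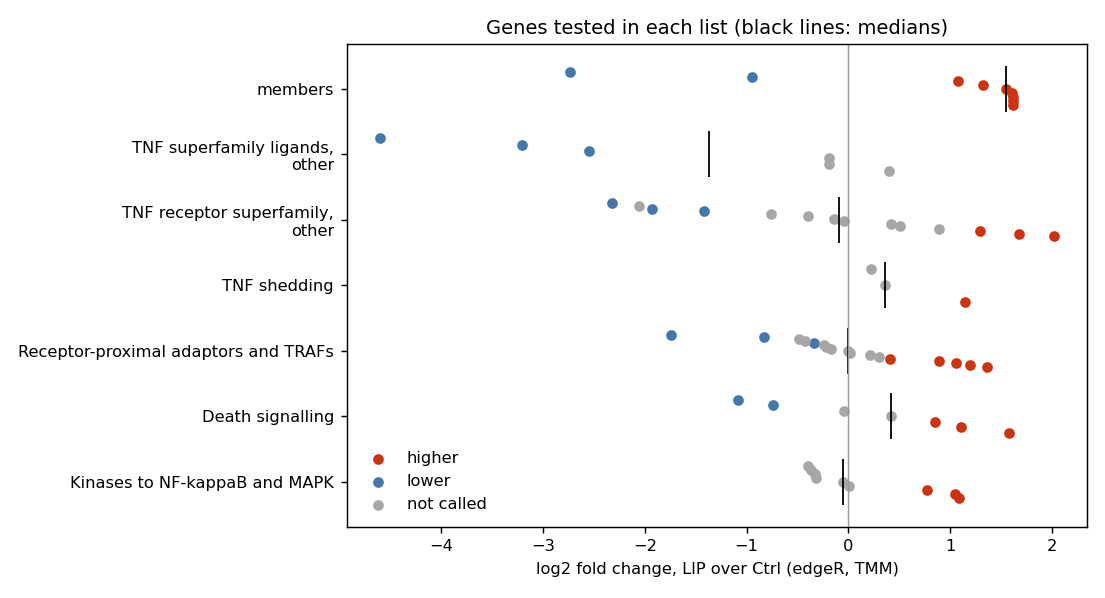
Log2 fold change of LIP over Ctrl (horizontal axis) of each gene tested among the members and the 6 lists of other superfamily and pathway genes, colored by call, with medians as black lines. With TMM normalization the members separate into 7 near or above 1 and 2 below 0, while the other lists spread around 0. The other ligands tested lie mostly below 0, and the 3 called lower passed the FPKM minimum through Ctrl only. Scaled on neutrophil genes none of these genes is called higher, and 99 of all 10440 genes tested are.

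The genes whose profile over the 6 libraries was closest to a member were found among 5320 genes averaging 5 FPKM or more, as the root-mean-square difference of log2 CPM centred on its mean. For *Tnf* these were *Eno1b*, *Unc119* and *Usp18*, at 0.0366, 0.0423 and 0.0501. For *Tnfrsf13c* they were the immunoglobulin gene *Igkv6-15*, the T cell receptor component *Cd3e* and the B cell receptor component *Cd79b*, at 0.143, 0.145 and 0.146. *Igkv6-15* belongs to a multigene family whose reads the counting could divide. All profiles share the same 6 libraries, and closeness is given as a description.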

How the data were processed

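Data of sorted PB neutrophils (Smart-seq2) were grouped by their sample labels. Counts of reads per gene are as the authors deposited them, without normalization. The deposited FPKM values had been scaled by the authors to gene length and library size, and coordinates are on GRCm38. The submitters' processing notes name cutadapt 1.9 and FastQC. Aligner, counting tool and use of strand are not given in the sources used here. No molecular identifiers were used, so PCR copies count as reads.

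Genes averaging 1 FPKM or more (10440) were tested by edgeR 4.0.16 in R 4.3.3 (TMM, quasi-likelihood test, no replicate block, Benjamini-Hochberg adjustment over all of them), and the SE was taken from the log2 fold change and the F statistic. At 52186555 to 57262379 counts per library, *Tnfsf10* had at most 61 reads in a library, and *Tnfsf13b* had between 414 and 1771. *Tnfrsf13c* had between 626 and 985 reads in LIP, and the other members had at least 1340 in every library. Since PCR copies count as reads, read numbers do not give the number of molecules sampled. Where a gene name stood on more than 1 row (50 names), the row of higher FPKM entered. Alternatives were DESeq2 1.42.0, limma 3.58.1 on log2(FPKM + 1) and log2(FPKM + 0.1), no filter on low values, edgeR's own filter, other scalings, a replicate block and omission of single libraries. Ratios and marker lists were compared by exact permutation tests (scipy 1.17.1). The edgeR, DESeq2 and limma fits, but not the permutation tests, were tried on simulated counts, where DESeq2 made a larger share of false calls than edgeR or limma. The simulation changed 200 of 10440 genes, as many up as down and with no shift in composition, unlike these libraries. In it edgeR recovered 43% of 2-fold and 89% of 4-fold changes, so a gene not called may still differ. No library was a copy of another.

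The members and gene lists were chosen with earlier results of these data known. Named genes are all members, the 2 highest and 2 lowest called genes of each pathway list, the 2 most abundant genes of each marker list and the 3 genes closest to *Tnf* and to *Tnfrsf13c*. Of the genes this rule names, 1 is not reported here. Other named genes lie outside this rule and were chosen after their values were seen.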

Additional observations from a re-analysis of the deposited data

How the results depend on the processing

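Over 15 alternatives to the fit, the 9 members tested gave 135 values, of which 128 kept direction and call, and the 126 apart from scaling on the neutrophil genes all did. That scaling gave *Tnf* -0.63, *Tnfsf13b* -0.08, *Tnfsf14* -0.39, *Tnfrsf1a* -0.08, *Tnfrsf1b* -0.16, *Fas* -0.08 and *Ltbr* -0.10, with 0 members higher and 4 lower, 9094 genes called (99 higher and 8995 lower), and 0 pathway genes higher and 50 lower in place of 15 and 11. Among the pathway genes named it gave *Relt* -0.02, *Rhbdf2* -0.55, *Tnfaip3* -0.35, *Ripk1* -0.50, *Bid* -0.59, *Cflar* -0.86, *Map3k5* -0.62, *Map3k8* -0.66 and *Tnfrsf21* -0.43, while *Tnfrsf23* stayed positive at 0.31 but was not called (adjusted p = 0.184). Among the most abundant marker genes it gave *Gzma* -1.50, *Nr4a1* -1.14, *Pld4* -1.44, *Bst2* -1.70, *Cd209a* -0.22, *Siglecf* -0.27, *Ccr3* -1.04, *Ppbp* -0.47 and *Pf4* -0.50. By construction it subtracts the change of the neutrophil list from each gene. Library totals moved the median of all genes from -0.09 to -0.42 and left 20 pathway genes lower, and limma left 19 with either pseudocount. Of the calls over all genes, 49.4% were higher with TMM, while limma on log2(FPKM + 1) had 32.1% and library totals 31.6%. *Pld4* was -0.06 with library totals and -0.05 in limma with either pseudocount, against 0.26.

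With each library left out in turn, 7 members were higher and 2 lower in every fit, and 4674 to 5385 genes were called, 14 to 15 pathway genes higher and 10 to 13 lower. The log2 fold changes lay between 1.00 and 1.22 for *Tnf*, 1.43 and 1.82 for *Tnfsf13b*, 1.20 and 1.46 for *Tnfsf14*, -1.0 and -0.86 for *Ltb*, 1.58 and 1.67 for *Tnfrsf1a*, 1.38 and 1.68 for *Tnfrsf1b*, 1.51 and 1.74 for *Fas*, 1.57 and 1.72 for *Ltbr* and -2.93 and -2.54 for *Tnfrsf13c*. The ratio of *Tnfrsf1b* to *Tnfrsf1a* changed sign, between -0.26 and 0.11, and the other ratios did not.

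With the replicate block 5546 genes were called, and all 9 members tested kept direction and call. The numbers are shared only through the labels: same-numbered libraries come from different mice, and their deviations correlated at -0.0112, 0.0437 and 0.0218.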
